A study of Rattus norvegicus with 15 samples.

Results

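The intermediate filament genes described here are 9 of the 26276 genes in the deposited table: the simple keratins Krt7, Krt8, Krt18 and Krt19, the muscle and mesenchymal filament genes Des, Vim and Synm, and the lamins Lmna and Lmnb1. They were chosen by gene symbol, with their levels in these libraries already known, so their levels, differences and ratios are given as a description without a test. RNA of Wistar rat cells was sequenced in 4 groups of 3 libraries. The iCM libraries came from beating colonies derived from cardiac stem cells, aCM are freshly isolated cardiomyocytes of rats aged 12 weeks, and nCM are freshly isolated cardiomyocytes of rats at postnatal day 1 to 2. The CSC libraries are 3 cultures of 1 undifferentiated cardiac stem cell clone, so they hold no spread between clones, and the labels do not say which clones gave the iCM colonies. Another 3 libraries, cCSC1, cCSC2 and cCSC3, came from 3 other undifferentiated clones, and CSC replicate 1 doubles as clone 4 in that comparison.

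Intermediate filaments are rope-like polymers of the cytoskeleton, built from different subunits in different tissues. Keratins polymerise only as pairs of a type I and a type II chain, and keratins 8 and 18 are the pair of simple epithelia. Desmin forms the filaments of muscle, where it ties Z-discs to each other, to the membrane and to the nucleus, vimentin is the filament protein of mesenchymal cells, and synemin joins desmin or vimentin filaments. Lamins line the inner face of the nuclear envelope.

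Library totals ran from 20.7 M to 48.5 M counts, lowest in aCM. Levels are given as CPM, each count divided by the library size after TMM scaling (1 factor per library, set so that most genes stay level), and the fold changes come from 1 fit over all 12 libraries. Cardiomyocyte markers summed to 7370 to 8450 CPM in iCM, 96700 to 126000 in aCM, 2860 to 5480 in nCM and 5.59 to 53.6 in CSC, with 11 of 11 detected markers above 3 counts in every iCM, aCM and nCM library. Fibroblast markers summed to 20700 to 22900 CPM in iCM, 2940 to 5650 in aCM, 19900 to 24900 in nCM and 5840 to 6510 in CSC, and 10 of 10 were present in each group. Endothelial markers summed to 2230 to 2600 CPM in iCM, 1540 to 2290 in aCM, 3210 to 3860 in nCM and 60.3 to 78.6 in CSC. In CSC most of the endothelial sum was 1 gene, Tek, at 54.4, 49.8 and 72.1 CPM. Transcripts of several cell types were thus present in iCM, aCM and nCM. In such bulk RNA fewer cells of a type and less RNA per cell cannot be told apart. Within iCM, replicates 2 and 3 stood apart. Their skeletal myogenic markers, such as Myog and Myh3, summed to 759 and 889 CPM, against 11.3 in iCM replicate 1, and results that use iCM are given with replicate 1 alone where this matters.

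Both type II simple keratins were most abundant in CSC, intermediate in iCM and lowest in the isolated cardiomyocytes, while both type I simple keratins had few counts in CSC and more in every other group. The promoters of the neighbouring genes Krt8 and Krt18 are shown because their products pair in 1 filament and yet their transcripts differed in opposite directions between iCM and CSC. Both lie on chromosome 7 of the rat assembly GRCr8, on opposite strands. The RefSeq sequences run from 250 bases before to 50 bases after the annotated start, Krt8 at chr7:135010290-135010589 on the minus strand and Krt18 at chr7:135035918-135036217 on the plus strand. Capitals mark matches, on either strand, to the TATA box (TATAAA), the GC box (GGGCGG), the E-box (CANNTG) and the AP-1 site (TGANTCA).
Krt8: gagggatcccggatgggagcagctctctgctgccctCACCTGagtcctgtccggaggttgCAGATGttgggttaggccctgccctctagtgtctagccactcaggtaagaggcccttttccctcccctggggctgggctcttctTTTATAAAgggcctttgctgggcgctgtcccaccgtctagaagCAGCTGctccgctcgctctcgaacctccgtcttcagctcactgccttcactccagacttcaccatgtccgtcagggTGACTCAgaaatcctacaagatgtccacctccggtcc
Krt18: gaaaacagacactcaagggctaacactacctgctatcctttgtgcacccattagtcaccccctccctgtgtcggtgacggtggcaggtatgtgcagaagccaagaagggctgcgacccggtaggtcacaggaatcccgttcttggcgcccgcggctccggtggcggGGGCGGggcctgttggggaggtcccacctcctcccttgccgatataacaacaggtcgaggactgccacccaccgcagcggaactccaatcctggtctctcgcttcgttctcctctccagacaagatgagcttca
The Krt8 window held 2 overlapping TATA box matches, 1 on each strand, 3 E-boxes and 1 AP-1 site, and the Krt18 window held 1 GC box. Among all 33469 rat promoters in the same table, 14.2% held the TATA box, 33.1% the GC box, 72.1% the E-box and 7.33% the AP-1 site. Neither window matched the CArG box, found in 1.64% of promoters, or the MEF2 site, found in 0.565%. These matches describe letters and not occupied sites.

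Krt8, the type II keratin of simple epithelia, had 81.0, 68.2 and 62.8 CPM in the 3 iCM libraries, 9.22, 8.95 and 13.8 CPM in aCM, 7.51, 4.29 and 7.12 CPM in nCM, and 1340, 1720 and 1910 CPM in CSC. The iCM libraries lay apart from both sides, above every isolated cardiomyocyte library and below every CSC library. The mean was 70.7 ± 9.36 CPM in iCM, against 1660 ± 294 CPM in CSC (SD, n = 3 each). On the log2 scale Krt8 was -4.55 ± 0.25 (SE) in iCM minus CSC, 3.48 ± 0.24 in iCM minus nCM and 2.73 ± 0.24 in iCM minus aCM. At this scaling the aCM and nCM groups did not overlap either, with a difference of 0.75 ± 0.24. With scaling to total counts they overlapped, at 7.70 CPM in the lowest aCM library and 8.41 CPM in the highest nCM library.

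Krt7, a type II keratin of ducts, mesothelium and other simple epithelia, repeated this order. It had 20.2, 21.1 and 19.4 CPM in iCM, 0.621, 1.34 and 1.61 CPM in aCM, 2.25, 1.43 and 1.89 CPM in nCM, and 143, 269 and 342 CPM in CSC. The 3 iCM values were close together, with an SD of 0.883 CPM, whereas CSC replicate 1 was the lowest of its group for Krt7 and for Krt8. The log2 difference was -3.63 ± 0.29 in iCM minus CSC, 3.44 ± 0.31 in iCM minus nCM and 4.09 ± 0.35 in iCM minus aCM. Between aCM and nCM the libraries overlapped, and the difference of -0.65 ± 0.39 was less than 2 of its standard errors.

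Krt18, the type I partner of Krt8, had 2.64, 2.43 and 3.06 CPM in iCM, 1.45, 2.10 and 3.71 CPM in aCM, 2.18, 2.04 and 2.39 CPM in nCM, and 0.167, 0.235 and 0.0592 CPM in CSC. The CSC values rest on 7, 11 and 2 counts. The third lies below the level of 3 counts, 0.0887 CPM in that library, so the fitted difference of 4.05 ± 0.40 in iCM minus CSC is loosely set: it was 4.48 without CSC replicate 2 and 3.72 without CSC replicate 3. The iCM and nCM libraries both lay within the range of aCM. Every iCM library was above every nCM library, the closest at 2.43 CPM in iCM and 2.39 CPM in nCM, but with scaling to total counts these groups overlapped, with 2.58 CPM in the lowest iCM library and 2.82 CPM in the highest nCM library. The log2 differences were 0.30 ± 0.31 in iCM minus nCM, 0.17 ± 0.32 in iCM minus aCM and 0.13 ± 0.32 in aCM minus nCM. The last 2 changed sign under other settings, to -0.08 in iCM minus aCM without aCM replicate 1, and in aCM minus nCM to -0.34 without aCM replicate 3 and to -0.22 with scaling to total counts. RefSeq names 7 copies of Krt18 in the rat, 6 of them pseudogenes, and 1 pseudogene of Krt8. None of these copies has a row of its own by symbol in the table, and the treatment of reads that match several copies was not stated, so the levels of Krt18 and Krt8 are uncertain to that extent.

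Krt19, a type I keratin that pairs with several type II chains, has no such named copy. It had 10.5, 8.19 and 9.26 CPM in iCM, 12.1, 10.9 and 18.6 CPM in aCM, 9.91, 5.98 and 8.11 CPM in nCM, and 0.335, 0.192 and 0.384 CPM in CSC. Its CSC values rest on 14, 9 and 13 counts, above the 3-count level in every library. The groups other than CSC lay close together: iCM and nCM overlapped and differed by 0.22 ± 0.24. At TMM scaling every aCM library was above every iCM library, by -0.57 ± 0.24 in iCM minus aCM. With scaling to total counts these groups overlapped, with 11.1 CPM in the highest iCM library and 9.36 CPM in the lowest aCM library. In aCM minus nCM the difference was 0.79 ± 0.24, and in iCM minus CSC it was 4.95 ± 0.32.

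**Figure D1:**
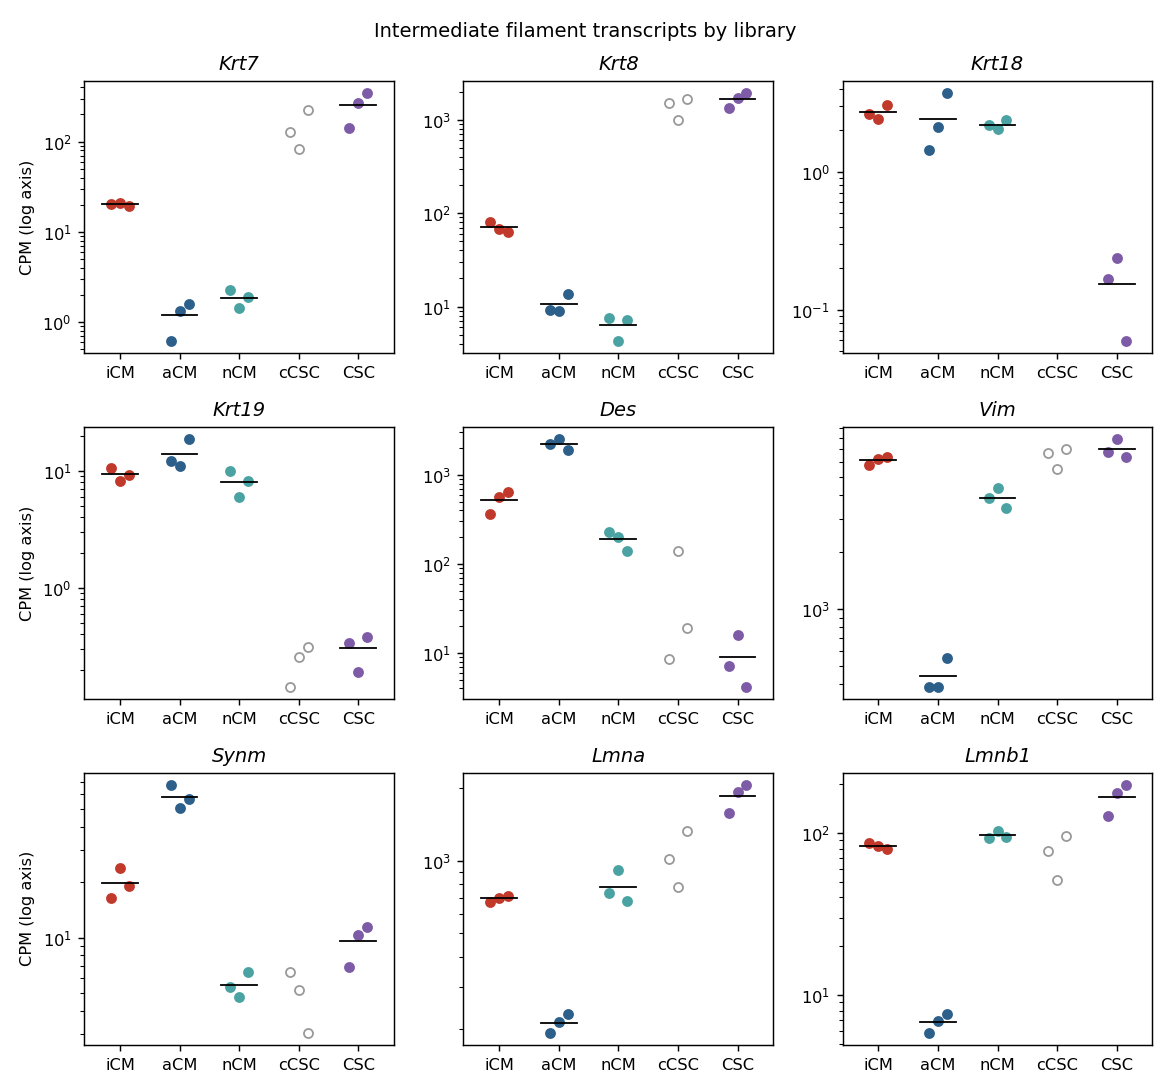
Level of each of the 9 genes in each library (y axis, TMM-scaled CPM, log axis, with its own range per gene), with 1 filled point per library and a bar at the mean of 3. Open points are cCSC1, cCSC2 and cCSC3, scaled to the total of their own table, in which Krt18 had no value. Krt7 and Krt8 are highest in CSC, Krt18 and Krt19 are lowest in CSC, and Des and Synm are highest in aCM.

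A ratio of counts within a library does not depend on how libraries are scaled, and a difference between groups in such a ratio does not depend on transcript length. The Krt8 to Krt18 count ratio was 30.7, 28.1 and 20.5 in iCM, 6.36, 4.26 and 3.73 in aCM, 3.43, 2.10 and 2.99 in nCM, and 7970, 7330 and 32300 in CSC. The ratio was thus higher in each iCM library than in each isolated cardiomyocyte library and lower than in each CSC library. It differed by -8.89 ± 0.71 (log2, SE over libraries) in iCM minus CSC, by 3.22 ± 0.28 in iCM minus nCM and by 2.48 ± 0.29 in iCM minus aCM. The Krt7 to Krt19 count ratio, taken from genes without named copies, was 1.93, 2.58 and 2.08 in iCM, 0.0511, 0.123 and 0.0866 in aCM, 0.227, 0.238 and 0.233 in nCM, and 428, 1400 and 891 in CSC. It kept the same order of iCM between CSC and the isolated cardiomyocytes, with a difference of -8.53 ± 0.51 in iCM minus CSC and 3.23 ± 0.13 in iCM minus nCM.

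**Figure D2:**
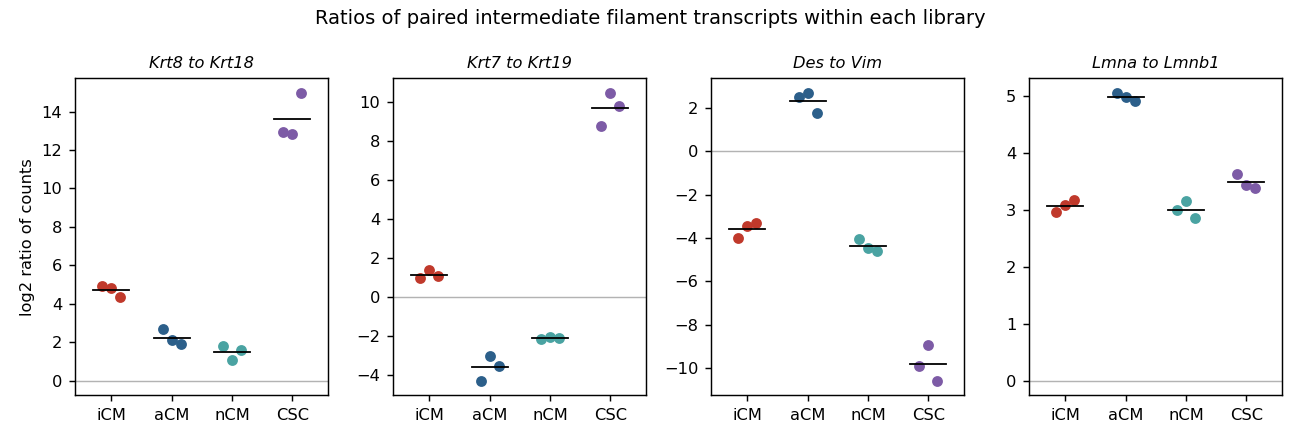
Log2 ratio of the counts of gene pairs within each library (y axis), with 1 point per library and a bar at the mean of 3. The Krt8 to Krt18 mean is 4.70 in iCM and 13.59 in CSC, and the Des to Vim mean is -3.58 in iCM, 2.33 in aCM, -4.38 in nCM and -9.81 in CSC.

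The other type I keratins did not follow Krt7 and Krt8, since CSC was their lowest group by mean. All 22 of these genes together summed to 10.9, 10.6 and 9.40 CPM in iCM, 10.7, 9.27 and 10.7 CPM in aCM, 13.6, 12.6 and 15.6 CPM in nCM, and 6.82, 10.1 and 5.09 CPM in CSC. Krt16, a type I keratin of activated epidermis, reached 0.670, 2.37 and 0.266 CPM in CSC and did not pass the filter on low counts. It had 2, 0 and 0 counts in iCM and none in aCM. Epithelial markers summed to 53.3 to 54.7 CPM in iCM, 49.8 to 60.8 in aCM, 46.2 to 54.9 in nCM and 20.7 to 27.4 in CSC, where 18 of 22 were above 3 counts in all libraries. The group with the highest Krt8 and Krt7 was thus the lowest for the summed epithelial markers. Of 20 tested, 9 rose, 1 fell and 10 did not pass in iCM minus CSC, where 34.8% of all genes were called higher and 31.2% lower. E-cadherin (Cdh1) averaged 1.10 ± 0.232 CPM in iCM against 0.804 ± 0.238 in CSC, with overlapping libraries. Epcam, a surface marker of epithelial cells, averaged 0.276 ± 0.0994 CPM in iCM against 0.074 ± 0.0227 in CSC (SD, n = 3 each), the latter on 2, 4 and 3 counts. Grhl1 went the other way, with means of 0.966 CPM in iCM and 2.06 in CSC. Mesothelial and epicardial markers summed to 601 to 710 CPM in iCM, 588 to 892 in aCM, 600 to 688 in nCM and 323 to 461 in CSC. Ezr, which encodes the membrane linker ezrin, made up 75.5% to 86.4% of that sum in CSC and 20.2% to 22.7% in iCM. The other 11 markers summed to 470 to 567 CPM in iCM, 493 to 774 in aCM, 535 to 593 in nCM and 62.9 to 91.8 in CSC. Their part in the keratin levels was not tested.

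Desmin, vimentin and synemin separated the adult cardiomyocytes from all other groups. The promoters of Des and Vim are shown because their transcripts differed in opposite directions between aCM and nCM. In GRCr8 the RefSeq windows are chr9:84299376-84299675 for Des and chr17:81577011-81577310 for Vim, both on the plus strand, with the same motifs in capitals.
Des: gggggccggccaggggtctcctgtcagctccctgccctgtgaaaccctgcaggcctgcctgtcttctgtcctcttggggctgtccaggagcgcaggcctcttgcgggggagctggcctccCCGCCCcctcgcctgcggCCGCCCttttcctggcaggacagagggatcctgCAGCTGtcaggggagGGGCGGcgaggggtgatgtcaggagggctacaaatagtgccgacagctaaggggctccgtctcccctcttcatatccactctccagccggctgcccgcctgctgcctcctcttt
Vim: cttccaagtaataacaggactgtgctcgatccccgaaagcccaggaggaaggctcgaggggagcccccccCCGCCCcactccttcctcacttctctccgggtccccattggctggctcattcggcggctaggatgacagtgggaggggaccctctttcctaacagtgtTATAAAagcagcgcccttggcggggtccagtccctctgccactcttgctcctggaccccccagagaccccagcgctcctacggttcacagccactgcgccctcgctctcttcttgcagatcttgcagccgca
The Des window held 3 GC boxes and 1 E-box, and the Vim window 1 TATA box and 1 GC box. The Synm window held no match to any of the 6 motifs, and Lmna held 1 GC box and 1 AP-1 site and Lmnb1 2 GC boxes and 1 E-box. Of the 9 genes, 7 were matched in the promoter table.

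Des had 360, 571 and 645 CPM in iCM, 2210, 2520 and 1910 CPM in aCM, 230, 200 and 138 CPM in nCM, and 7.06, 16.1 and 4.17 CPM in CSC. No groups overlapped, and the order was aCM, iCM, nCM and CSC. The log2 difference was 5.84 ± 0.46 in iCM minus CSC, 1.47 ± 0.38 in iCM minus nCM, -2.08 ± 0.39 in iCM minus aCM and 3.55 ± 0.41 in aCM minus nCM. Replicate 1, the iCM library with few skeletal myogenic transcripts, had the lowest Des of its group, and with it alone the difference was 0.94 in iCM minus nCM and -2.60 in iCM minus aCM. The 12 skeletal markers found, all above 3 counts in every iCM library, summed to 11.3, 759 and 889 CPM in iCM, 31.2, 26.0 and 22.4 CPM in aCM, 8.37 to 10.8 CPM in nCM and 5.97 to 7.2 CPM in CSC. Desmin is a muscle protein of heart and skeletal muscle alike. The cardiomyocyte marker sums, given above, had the same order of groups as Des, without overlap. The part of either set of markers in the level of Des was not tested.

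Vim had 5760, 6190 and 6360 CPM in iCM, 390, 389 and 555 CPM in aCM, 3860, 4350 and 3410 CPM in nCM, and 6740, 7900 and 6390 CPM in CSC. At TMM scaling the iCM libraries lay just below all CSC libraries and above all nCM libraries, and aCM stood far below. With scaling to total counts iCM and CSC overlapped, with 6640 CPM in the highest iCM library and 6100 CPM in the lowest CSC library. The log2 difference was -0.20 ± 0.21 in iCM minus CSC, 0.65 ± 0.21 in iCM minus nCM, 3.78 ± 0.23 in iCM minus aCM and -3.12 ± 0.22 in aCM minus nCM. The first is smaller than its standard error and does not set iCM apart from CSC. Fibroblast markers, which accompany vimentin in mesenchymal cells, were also lowest in aCM, as given above, and their part was not tested.

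The Des to Vim count ratio was 0.0625, 0.0921 and 0.102 in iCM, 5.66, 6.50 and 3.46 in aCM, 0.0595, 0.0461 and 0.0407 in nCM, and 0.00105, 0.00204 and 0.000653 in CSC. The iCM and nCM groups lay next to each other, 0.80 ± 0.27 apart on the log2 scale, while iCM differed from aCM by -5.91 ± 0.35 and from CSC by 6.23 ± 0.52. The aCM libraries, in turn, differed from nCM by 6.71 ± 0.32.

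Synm had 16.3, 23.8 and 19.0 CPM in iCM, 67.3, 50.3 and 56.5 CPM in aCM, 5.40, 4.76 and 6.48 CPM in nCM, and 6.91, 10.3 and 11.4 CPM in CSC. At TMM scaling no groups overlapped, and unlike Des the lowest group was nCM and not CSC. With scaling to total counts nCM and CSC overlapped. The highest nCM library had 7.65 CPM and the lowest CSC library 7.13 CPM. The log2 difference was 1.05 ± 0.20 in iCM minus CSC, 1.83 ± 0.21 in iCM minus nCM, -1.56 ± 0.20 in iCM minus aCM and 3.39 ± 0.22 in aCM minus nCM. With iCM replicate 1 alone, the difference was 1.57 in iCM minus nCM and -1.81 in iCM minus aCM.

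**Figure D3:**
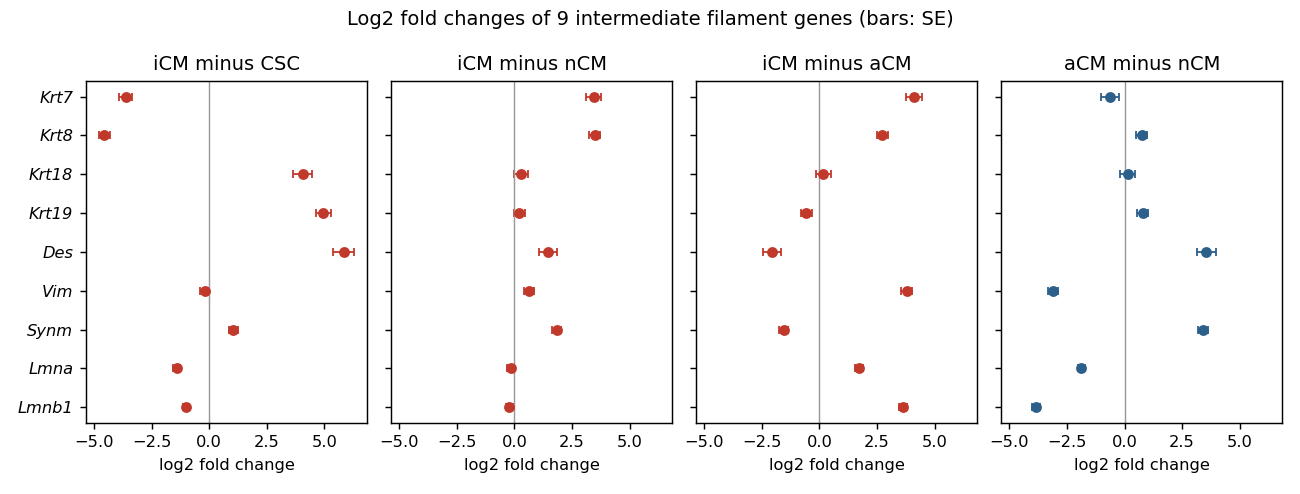
Log2 fold change of each of the 9 genes (rows) in 4 comparisons (panels), with bars of 1 SE. In iCM minus CSC, Krt7 and Krt8 lie below 0 and Krt18, Krt19 and Des lie above 3, and in iCM minus nCM, Krt7 and Krt8 lie above 3.

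Of the remaining intermediate filament genes, 59 were listed, 52 were found and 35 passed the filter on low counts: 12 type I keratins, 12 type II keratins and 11 other filament genes. In iCM minus CSC, 15 of the 35 rose and 4 fell (edgeR's quasi-likelihood test with Benjamini-Hochberg adjustment over all genes at 0.05), 19 in all, when 66.0% of the 17242 genes tested were called, 34.8% as higher and 31.2% as lower. Their median difference was 0.65, against 0.08 over all genes. Nes, which encodes nestin, a filament protein of progenitor and regenerating cells that assembles with vimentin, had the largest difference. It had 136, 173 and 183 CPM in iCM, 53.5, 45.8 and 77.7 CPM in aCM, 113, 110 and 118 CPM in nCM, and 1.91, 1.81 and 1.86 CPM in CSC. Nes was thus low in the stem cell clone, in which Vim was highest, and rose by 6.46 ± 0.22 in iCM over CSC (adjusted p = 4e-11). Its lowest iCM library was replicate 1, as for Des. Prph, which encodes peripherin, a filament protein of peripheral neurons, rose by 3.68 ± 0.30 in iCM over CSC (adjusted p = 1.94e-07), with 5.76, 6.23 and 5.51 CPM in iCM and 0.694, 0.235 and 0.444 CPM in CSC (edgeR). Krt24 and Krt23, type I keratins, and Krt1, a type II keratin of epidermis, also rose, with means of 1.91, 1.61 and 1.38 CPM in iCM. Bfsp2, a filament gene of the lens, and Nefm fell, at 0.713 ± 0.0983 and 0.203 ± 0.0703 CPM in iCM, against 2.00 ± 0.688 and 1.07 ± 0.334 CPM in CSC (edgeR, adjusted p = 0.000379 and 0.000132).

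Krt2, a type II keratin known from upper epidermis, was highest in adult cardiomyocytes. It had 8.19, 7.01 and 9.08 CPM in iCM, 164, 89.1 and 97.1 CPM in aCM, 12.9, 14.8 and 7.38 CPM in nCM, and 3.47, 3.48 and 5.12 CPM in CSC. It was higher by 3.32 ± 0.29 in aCM over nCM (edgeR, adjusted p = 3.5e-07) and lower in iCM than in aCM, at -3.85 ± 0.30 (adjusted p = 1.34e-07). Krt79, another type II keratin, did the reverse, with 11.2, 10.8 and 11.2 CPM in iCM, 0.155, 0.627 and 0.277 CPM in aCM, 18.5, 18.2 and 12.0 CPM in nCM, and 11.5, 13.6 and 16.9 CPM in CSC. It fell by 5.46 on the log2 scale in aCM relative to nCM (SE 0.34, edgeR, adjusted p = 1.36e-08), or -6.24 without aCM replicate 2, and its difference of -0.34 ± 0.23 in iCM minus CSC did not pass (adjusted p = 0.212).

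Across the list, 6 rose and 10 fell in aCM minus nCM, where 62.7% of all genes were called, 30.8% as higher and 31.9% as lower, and the median was -0.14, against -0.01 over all genes. Sync, which encodes syncoilin, a muscle partner of desmin, had 26.3, 28.6 and 27.5 CPM in iCM, 39.5, 45.2 and 39.7 CPM in aCM, 20.2, 15.9 and 16.7 CPM in nCM, and 13.0, 15.7 and 10 CPM in CSC. Its groups were ordered as those of Des, without overlap, and it rose by 1.24 ± 0.15 in aCM over nCM (edgeR, adjusted p = 9.69e-06) and by 1.09 ± 0.15 in iCM over CSC (adjusted p = 2.87e-05). Gfap, the filament gene of astrocytes, averaged 4.12 ± 1.23 CPM in aCM and 1.32 ± 0.115 in nCM, a rise of 1.64 ± 0.27 (edgeR, adjusted p = 0.000143, SD over n = 3 each). The neurofilament genes Nefl and Nefm were lower in aCM than in nCM, at -2.58 ± 0.54 and -2.66 ± 0.56 (edgeR, adjusted p = 0.000966 and 0.001), at levels below 1 CPM in aCM. Nefl had 0.362, 0.492 and 0.332 CPM in aCM, all below its 4.52, 0.820 and 1.82 CPM in nCM. Both calls held with any of the 6 libraries left out, but the differences moved to -1.72 for Nefl without nCM replicate 1 and to -3.66 for Nefm without aCM replicate 1.

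In iCM minus nCM, 3 of the 35 rose and 7 fell, where 31.4% of all genes were called, 18.3% as higher and 13.1% as lower. With iCM replicate 1 alone Krt23 alone was called, and 6 genes were called without iCM replicate 2 or without iCM replicate 3. Krt23 had 1.72, 1.53 and 1.57 CPM in iCM and 0.214, 0.238 and 0.213 CPM in nCM, a rise of 2.84 ± 0.27 (edgeR, adjusted p = 8.43e-06), and it was as low in aCM and CSC. Nes and Sync were the other 2 that rose, by 0.53 ± 0.16 and 0.64 ± 0.15 (edgeR, adjusted p = 0.0282 and 0.0064). The call of Nes was lost without each of the 6 libraries compared except iCM replicate 1, with adjusted p of 0.0553 to 0.11, and with iCM replicate 1 alone its difference was 0.26. Those that fell, named with their mean CPM in iCM and in nCM, were Krt24 (1.91 and 4.10), Krt12 (0.895 and 1.96), Krt1 (1.38 and 2.61), Prph (5.83 and 9.78), Nefm (0.203 and 0.648), Nefl (0.515 and 2.39) and 1 other keratin below 1 CPM in every group. The calls of Prph, Krt1 and Krt12 were also lost without single libraries. In iCM minus aCM, 7 rose and 7 fell, where 63.1% of all genes were called, 33.0% as higher and 30.1% as lower, and 9 were called with iCM replicate 1 alone. Nefh, the heavy neurofilament gene, rose by 1.00 ± 0.26, with a mean of 2.02 CPM in iCM and 1.00 in aCM, and Krt13, a type I keratin of mucosa, fell by 1.90 on the log2 scale (SE 0.62), with 0.267 CPM in iCM and 1.00 in aCM (edgeR, adjusted p = 0.00447 and 0.0172). The call of Krt13 was lost without iCM replicate 2, at adjusted p = 0.0647, and without aCM replicate 3, at adjusted p = 0.0584. Krt78, a type II keratin, was below 1 CPM in every group but CSC, where its mean was 1.06 ± 0.845 CPM. Krt10, Krt14, Krt77, Krt80 and Ina had group means between 0.694 and 2.34 CPM, and among the 4 comparisons Krt77 alone of these passed, in iCM minus CSC and aCM minus nCM, both lost without single libraries. Bfsp1, the partner of Bfsp2 in the lens, averaged 3.14 to 3.86 CPM in iCM, aCM and nCM and 0.685 CPM in CSC.

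**Figure D4:**
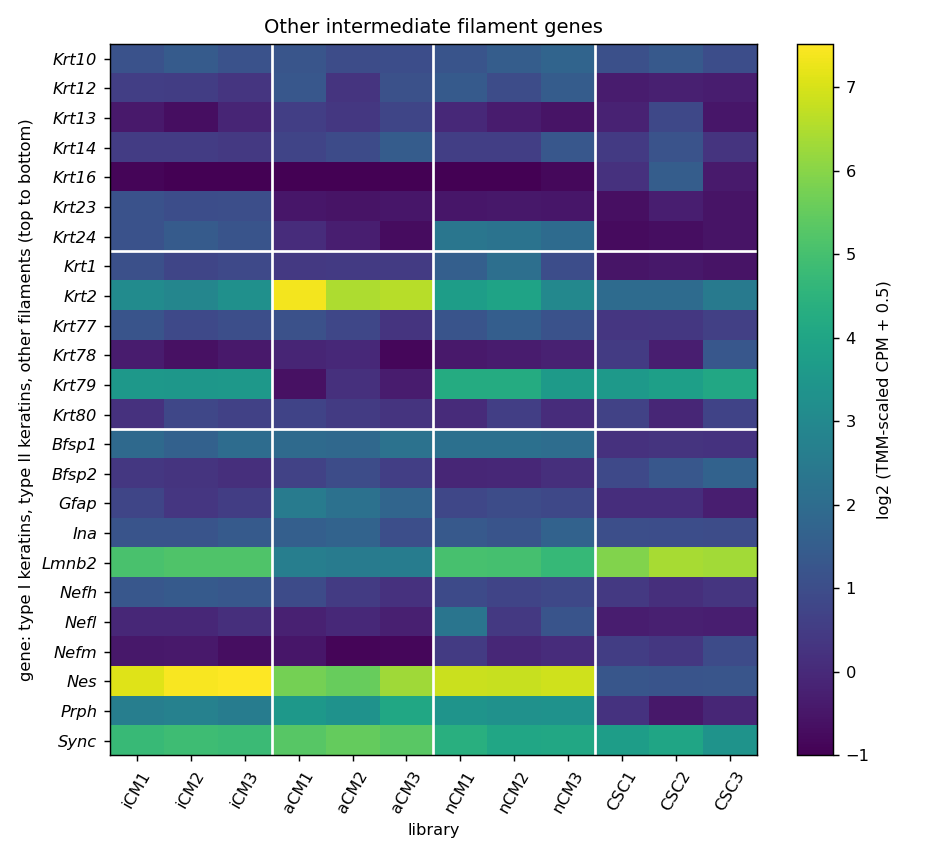
Heat map of intermediate filament genes other than the 9, showing those with a mean of at least 1 CPM in a group (rows) in the 12 libraries (columns). The colour is log2 (TMM-scaled CPM + 0.5), and white lines part the groups and the kinds of filament gene. Nes is dark in CSC and bright in the other groups, Krt2 is brightest in aCM and Krt79 is dark in aCM.

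Genes of proteins that link or chaperone the filaments were mostly higher in aCM than in nCM. Of 28 tested, 22 rose and 1 fell in aCM minus nCM, with a median difference of 1.75, against -0.01 over all genes, of which 62.7% were called and 30.8% were called higher. The 2 largest were Dsp, which encodes desmoplakin, the desmosomal protein that anchors desmin at the cell junction, and Nrap, which encodes an anchoring protein of myofibril ends. Dsp averaged 172 ± 18.7 CPM in iCM, 3790 ± 276 in aCM, 77.7 ± 12.3 in nCM and 423 ± 119 in CSC (SD, n = 3 each), a rise of 5.61 ± 0.24 in aCM over nCM (edgeR, adjusted p = 7.04e-10). Nrap averaged 58.2 ± 3.39 CPM in iCM, 1040 ± 147 in aCM, 28.0 ± 6.49 in nCM and 0.445 ± 0.175 in CSC (SD, n = 3 each). Both were also the largest differences between iCM and aCM, at -4.46 ± 0.23 for Dsp and -4.16 ± 0.20 for Nrap (edgeR, adjusted p = 4.15e-09 and 3.03e-09), where 4 linker genes rose and 18 fell, with 63.1% of all genes called, 33.0% as higher and 30.1% as lower.

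In iCM minus CSC, 14 of the 28 linker genes rose and 9 fell, where 66.0% of all genes were called, 34.8% as higher and 31.2% as lower. The genes Hspb1, a small heat shock protein that associates with intermediate filaments, and Jup, which encodes plakoglobin of the desmosome, had the largest differences. Hspb1 averaged 168 ± 22.8 CPM in iCM and 0.152 ± 0.113 in CSC, the CSC value resting on 5, 13 and 2 counts. Jup averaged 197 ± 7.70 CPM in iCM and 0.581 ± 0.319 in CSC, and both rose (SD over 3 libraries, edgeR, adjusted p = 3.46e-11 and 2.17e-11). The other clones, each scaled to its own total, were not all so low. Hspb1 and Jup were at 9.23 and 8.90 CPM in cCSC2, 0.214 and 0.665 in cCSC1, 0.103 and 0.332 in cCSC3, and 0.123 and 0.482 in clone 4. In iCM minus nCM, 16 rose and 1 fell, where 31.4% of all genes were called and 18.3% were called higher. The median was 0.58, against -0.02 over all genes, and 6 rose and none fell with iCM replicate 1 alone. The 2 largest, Ppl and Pkp1, encode periplakin, which binds keratin 8 and vimentin, and plakophilin 1 of epithelial desmosomes. Ppl averaged 127 ± 23.6 CPM in iCM, 32.6 ± 7.52 in aCM, 15.1 ± 2.25 in nCM and 216 ± 75.7 in CSC, and Pkp1 16.7 ± 1.31 CPM in iCM, 2.5 ± 0.183 in aCM, 5.09 ± 0.546 in nCM and 189 ± 59.6 in CSC (SD, n = 3 each). By mean, both had iCM between CSC and the isolated cardiomyocytes, as Krt7 and Krt8 did. The iCM and CSC libraries of Ppl overlapped, however, with 154 CPM in iCM replicate 2 and 136 CPM in CSC replicate 2. Its call in iCM minus CSC was lost without CSC replicate 3 (edgeR, adjusted p = 0.0682). Ppl and Pkp1 rose by 3.07 ± 0.26 and 1.71 ± 0.20 in iCM over nCM (edgeR, adjusted p = 3.06e-06 and 5.36e-05).

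**Figure D5:**
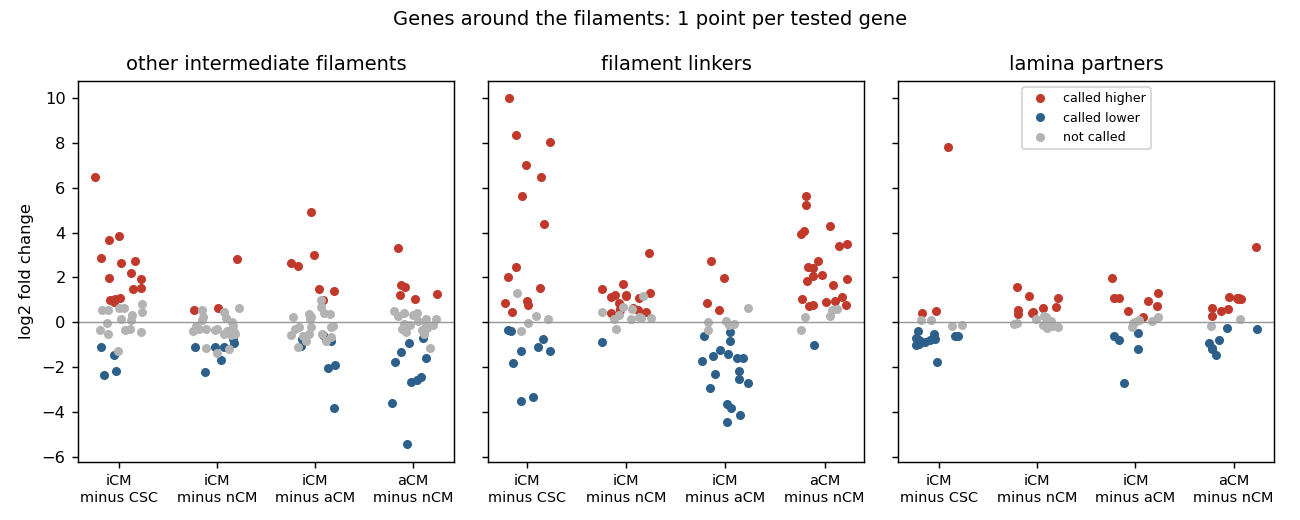
Log2 fold change of each tested gene (1 point per gene, y axis) of 3 lists in 4 comparisons (x axis), in red where it was called higher, in blue where it was called lower and in grey where it was not called. Among the linkers, 22 of 28 points are red in aCM minus nCM and 18 of 28 are blue in iCM minus aCM.

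Both lamins were lowest in aCM and highest in CSC. Lmna encodes lamins A and C, whose levels in tissues follow stiffness and differentiation, and had 677, 700 and 715 CPM in iCM, 194, 215 and 231 CPM in aCM, 735, 916 and 682 CPM in nCM, and 1570, 1920 and 2060 CPM in CSC. The iCM and nCM libraries overlapped, differing by -0.16 ± 0.15, and the log2 difference was -1.41 ± 0.16 in iCM minus CSC, 1.71 ± 0.16 in iCM minus aCM and -1.87 ± 0.16 in aCM minus nCM. Lmnb1 encodes the B-type lamin B1, known to be reduced in cells that have stopped dividing, and had 86.7, 83.0 and 80.0 CPM in iCM, 5.85, 6.85 and 7.65 CPM in aCM, 92.7, 103 and 94.7 CPM in nCM, and 128, 177 and 198 CPM in CSC. All iCM libraries were below all nCM libraries, with a difference of -0.22 ± 0.14, and the largest gap was to aCM, at 3.62 ± 0.17 in iCM minus aCM and -3.84 ± 0.17 in aCM minus nCM. In iCM minus CSC it was -1.01 ± 0.14.

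The 2 lamins did not differ equally. The Lmna to Lmnb1 count ratio was 7.78, 8.46 and 8.94 in iCM, 33.1, 31.3 and 30.1 in aCM, 7.94, 8.88 and 7.21 in nCM, and 12.3, 10.9 and 10.4 in CSC. The iCM and nCM groups overlapped and differed by 0.07 ± 0.10 on the log2 scale, while aCM exceeded nCM by 1.98 ± 0.10 and iCM minus CSC was -0.41 ± 0.09. Lmnb2, the second B-type lamin gene, had 33.3, 35.7 and 35.6 CPM in iCM, 5.80, 5.28 and 5.48 CPM in aCM, 32.3, 31.6 and 25.7 CPM in nCM, and 60.1, 84.9 and 81.3 CPM in CSC. It fell by 2.44 on the log2 scale in aCM relative to nCM (SE 0.15, edgeR, adjusted p = 1.32e-08) and by 1.11 in iCM relative to CSC (SE 0.13, adjusted p = 7.81e-06), the directions of Lmnb1. In iCM minus nCM it was not called, at 0.22 ± 0.13 (edgeR, adjusted p = 0.224), with every iCM library above every nCM library, the reverse of Lmnb1. The Lmna to Lmnb2 ratio was higher in aCM than in nCM by 0.56 ± 0.15, less than for Lmnb1. Cell cycle transcripts summed to 1540 to 1580 CPM in iCM, 177 to 273 in aCM, 1720 to 2180 in nCM and 3640 to 5450 in CSC, the order of Lmnb1, with 15 of 15 genes above 3 counts in every library. All 15 fell in iCM relative to CSC and in aCM relative to nCM, where 31.2% and 31.9% of all genes were called lower. In iCM minus nCM 1 of the 15 rose and 4 fell, where 31.4% of all genes were called, 18.3% as higher and 13.1% as lower. Their part in the lamin levels was not tested.

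Partners of the lamins at the nuclear envelope moved in both directions. Of 19 tested, 3 rose and 12 fell in iCM minus CSC, with a median of -0.61, against 0.08 over all genes, of which 66.0% were called and 31.2% were called lower. In iCM minus nCM 9 rose and none fell, where 31.4% of all genes were called and 18.3% were called higher, and 5 lamina partners were called without iCM replicate 2 or without iCM replicate 3 and 3 with iCM replicate 1 alone. Mlip, the gene of a muscle protein that binds lamin A, averaged 17.4 ± 1.22 CPM in iCM, 114 ± 14.1 in aCM, 11.1 ± 3.76 in nCM and 0.0693 ± 0.0386 in CSC (SD, n = 3 each), the last on 3, 5 and 1 counts. It rose in iCM over CSC (edgeR, adjusted p = 6.67e-10), and by 3.36 ± 0.22 in aCM over nCM (adjusted p = 2.89e-08). Syne3, which encodes nesprin 3, the nuclear envelope protein that reaches intermediate filaments through plectin, averaged 23.4 ± 1.71 CPM in iCM, 11.1 ± 1.46 in aCM, 7.81 ± 1.12 in nCM and 80.3 ± 7.39 in CSC. It fell by 1.78 on the log2 scale in iCM relative to CSC (SE 0.13, edgeR, adjusted p = 7.62e-08) and rose by 1.59 ± 0.14 in iCM over nCM (adjusted p = 3.51e-06). Plec, which encodes plectin itself, averaged 1040 ± 118 CPM in iCM, 1400 ± 212 in aCM, 368 ± 58.0 in nCM and 3650 ± 382 in CSC (SD, n = 3 each). Like Syne3 it fell in iCM relative to CSC, by 1.81 (SE 0.18), and rose by 1.5 ± 0.18 in iCM over nCM (edgeR, adjusted p = 1.41e-06 and 7.11e-05).

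Tmem43, which encodes the inner membrane protein LUMA, averaged 162 ± 3.94 CPM in iCM, 41.6 ± 2.80 in aCM, 72.9 ± 3.86 in nCM and 320 ± 15 in CSC (SD, n = 3 each). It was higher in iCM than in aCM by 1.96 ± 0.10 and than in nCM by 1.15 ± 0.09 (edgeR, adjusted p = 2.99e-09 and 1.95e-06). In aCM minus nCM, 10 lamina partners rose and 7 fell, where 62.7% of all genes were called, 30.8% as higher and 31.9% as lower. With scaling to total counts, 7 were called higher and 8 lower. Tmpo, the gene of lamina-associated polypeptide 2, fell most after the rise of Mlip, by 1.45 on the log2 scale (SE 0.16, edgeR, adjusted p = 4.54e-06), with 72.5 ± 13.0 CPM in aCM and 198 ± 19.8 in nCM.

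The 3 other undifferentiated clones, 1 library each without replicates, allow the CSC levels to be set beside clones not used in the fit. The clone table was normalized separately, so its values are scaled to the total of each column, and clone 4, which is CSC replicate 1, is given on that scale. Krt8 was at 1520, 996 and 1650 CPM in cCSC1, cCSC2 and cCSC3 and 1380 CPM in clone 4, and Krt7 at 127, 83.2 and 222 CPM in the 3 clones and 147 CPM in clone 4. Krt19 was at 0.143, 0.258 and 0.310 CPM in the 3 clones and 0.333 CPM in clone 4. On the same scale the iCM libraries had 65.5 to 86.2 CPM of Krt8, 20.2 to 22.4 CPM of Krt7 and 8.70 to 11.1 CPM of Krt19. Each of the 4 clones was thus above iCM for Krt8 and Krt7 and below it for Krt19. Krt18 had no value in the clone table. Vim ranged from 5490 to 7000 CPM in the 3 clones, with 6960 CPM in clone 4. Des differed most among the 8 genes, at 8.60 CPM in cCSC1, 140 CPM in cCSC2 and 19.2 CPM in cCSC3, and 7.28 CPM in clone 4. The difference of cCSC2 from clone 4 was 4.26 on the log2 scale, where 23.6% of 15979 genes lay past 2-fold, against 19.1% for cCSC1 and 23.2% for cCSC3. Des in cCSC3 was also past 2-fold from clone 4, at 1.4 on the log2 scale, as were Krt19 in cCSC1 at -1.22, Lmna and Lmnb1 in cCSC2 at -1.06 and -1.37, and Synm in cCSC3 at -1.23. The Krt19 difference is loosely set, since its 0.143 CPM in cCSC1 lies within the 0.0582 to 0.166 CPM that 3 counts equal in the 12 libraries. Smooth muscle and pericyte markers summed to 981 CPM in cCSC2, 262 CPM in cCSC1 and 224 CPM in cCSC3, and 304 CPM in clone 4, and fibroblast markers to 15500 CPM in cCSC2 and 6730 CPM in clone 4; their part in Des was not tested. Lmna was at 1020, 776 and 1330 CPM in cCSC1, cCSC2 and cCSC3 and 1620 CPM in clone 4, and Lmnb1 at 77.3, 50.9 and 95.9 CPM in the 3 clones and 132 CPM in clone 4. Both lamins were highest in clone 4, the clone of the CSC group. With scaling to total counts, and across tables normalized separately, the iCM libraries had 719, 743 and 746 CPM of Lmna and 92.1, 88.1 and 83.5 CPM of Lmnb1. The Lmna level of cCSC2 was thus close to iCM and those of cCSC1 and cCSC3 above it, while Lmnb1 was below every iCM library in cCSC1 and cCSC2 and above them in cCSC3. Synm was at 6.53, 5.21 and 3.05 CPM in the 3 clones and 7.14 CPM in clone 4. By total counts the nCM libraries had 5.03 to 7.65 CPM of Synm, so none of these clones lay above nCM.

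The genes whose pattern was most like each of the 9, by Pearson's r of log2 (CPM + 0.5) over the 12 libraries among 17241 other tested genes, are given as a description, since the points share 4 groups and any gene that follows the groups scores high. Lmnb1 was closest to Kif23, Tacc3 and Nuf2, genes of mitosis, with r of 0.999, 0.998 and 0.998, and Lmna to Ncapg, Ncapd2 and Adss with r of 0.997, 0.996 and 0.996, the first 2 being condensin subunits. Des was closest to Ndrg2, Cryab and Trim63 with r of 0.996, 0.992 and 0.990. Cryab, the small heat shock protein that binds desmin, had 345, 373 and 454 CPM in iCM, 1890, 1990 and 1980 CPM in aCM, 227, 174 and 121 CPM in nCM, and 2.73, 5.85 and 4.44 CPM in CSC. Vim was closest to Col5a2, a fibrillar collagen, Ing2 and Maz with r of 0.997, 0.993 and 0.991. Krt8 was closest to Gsr, which encodes glutathione reductase, Tcf20 and Tbc1d10b with r of 0.995, 0.995 and 0.992, and Krt7 to Lgals3, which encodes galectin 3, 2610528A11Rik and Lsm12 with r of 0.992, 0.991 and 0.990. Krt19 was closest to Myl7, the atrial myosin light chain, Cygb and Rarres2 with r of 0.993, 0.989 and 0.989, and Krt18 to Camk2n1, Kcnk6 and Crebrf with r of 0.986, 0.983 and 0.982. Synm was closest to Zbtb39, Dynll2 and Phldb1 with r of 0.979, 0.979 and 0.977. Between the 9 genes, r was 0.98 for Krt7 with Krt8 and 0.95 for Krt18 with Krt19, but -0.83 for Krt8 with its partner Krt18, over the same 12 libraries.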

How the data were processed

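RNA of 15 rat libraries was sequenced after removal of ribosomal RNA, from 1 µg of total RNA with an integrity number of at least 8, per the labels' protocols. The authors deposited estimated counts per gene, which need not be whole, for 12 libraries. The log2 columns the authors deposited beside them were not used for levels. In the clone table the authors deposited estimated counts in the columns of cCSC3 and clone 4, and in those of cCSC1 and cCSC2 a signal of unstated making that is not whole counts, so no count test was run on clones. DESeq is named in the submitters' processing notes. The genome build, the aligner, the counter and its strand setting were all not given in the sources used here. Overlapping genes and near-identical copies are uncertain for that reason.

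The 9 genes, the gene lists and the rules were chosen with earlier results of these data known. Symbols come from the table; 1 line without a gene name, with a count of 0, was left out, as were 5794 identifiers without a symbol from naming. Estimated counts were rounded. edgeR 4.0.16 in R 4.3.3 kept 17242 of 26276 genes (filterByExpr, minimum count 10), all 9 genes included, scaled by TMM and fitted all 12 libraries by group, with Benjamini-Hochberg adjustment at 0.05 in 4 comparisons. CPM levels are mean ± SD of 3 libraries. A count of 3 equals 0.0582 to 0.166 CPM by library, which covers counting error only. Figures were drawn with matplotlib 3.10.9, and the pipeline was tested on simulated data. Named genes are the 9, other filament genes with a mean of at least 1 CPM in a group, and the 2 largest called per comparison in each other list; Plec, Cdh1, Epcam, Myog and Myh3 were named after their values were seen. The list of filament linkers has 28 tested identifiers, of which 2 carry the symbol Myot.

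The labels name separate cultures for CSC alone, so elsewhere p-values measure only a spread between libraries that may be technical. All pairs of libraries differed by more than sampling noise. Replicate numbers did not pair the libraries: same-numbered libraries' deviations correlated at -0.22 to 0.08. Alternatives were other scalings (RLE, total counts), other filters, DESeq2 1.42.0, a replicate block, the 2 groups alone, and leaving out each library. iCM replicate 1 alone was added after seeing the data.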

Additional observations from a re-analysis of the deposited data

How the results depend on the processing

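Among the fold changes of the 9 genes, 468 values under alternatives kept their direction and moved by less than 1 SD. That SD is between libraries on the log2 scale, pooled over the 2 groups compared. Another 24 moved by more, and the 3 that changed sign were all of Krt18. These were -0.08 in iCM minus aCM without aCM replicate 1, and in aCM minus nCM -0.34 without aCM replicate 3 and -0.22 with total count scaling. Leaving out the other of these aCM libraries gave 0.63 in iCM minus aCM (without replicate 3) and 0.37 in aCM minus nCM (without replicate 1). The cause was not tested. For the other genes named, calls in the 4 comparisons held in 1341 refits and were lost in 93, with none reversed, among them Bfsp2 and Plec in iCM minus aCM, Prph and Nes in iCM minus nCM, and Krt13 and Krt77 in aCM minus nCM. The CSC level of Krt18 rests on 2 to 11 counts per library, which limits its differences.

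In iCM minus nCM, with iCM replicate 1 alone, 1059 genes were called, against 5412 with all libraries, with 1 other filament gene, 3 lamina partners and 6 linkers; fewer libraries enter this fit. That setting gave 9 lamina partners in iCM minus CSC and 9 other filament genes in iCM minus aCM. The stricter low-count filter tested 20 other filament genes and called 10 in aCM minus nCM. Leaving out 1 library at a time, iCM minus nCM gave 3494 to 5079 genes, 6 to 9 other filament genes, 5 to 10 lamina partners and 12 to 16 linkers; the lowest counts came without iCM replicate 2.

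Scaling to total counts moved the median of all genes to 0.28 in iCM minus aCM and to -0.35 in aCM minus nCM, and to 0.18 in iCM minus CSC, where RLE gave -0.05. Differences should be read relative to these shifts. It split the calls 7334 higher and 3746 lower in iCM minus aCM, with 8 and 4 other filament genes and 11 and 4 lamina partners, and 3787 higher and 7489 lower in aCM minus nCM, with 4 and 14 other filament genes and 7 and 8 lamina partners. In iCM minus nCM it gave 8 higher and 1 lower lamina partners. Levels by total counts were 736 (Lmna), 21.4 (Krt7), 6440 (Vim) and 87.9 (Lmnb1) CPM in iCM, 185 CPM (Lmna) in aCM, and 2.44 (Krt18) and 107 (Lmnb1) CPM in nCM.

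The replicate block gave 11122, 4719, 10578 and 10462 genes in iCM minus CSC, iCM minus nCM, iCM minus aCM and aCM minus nCM; the numbers are names here, and no count moved by over 1.5 times. DESeq2 called 11488, 5617, 10736 and 10687.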

Other observations

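Genes of the mesenchymal state, among them regulators known to repress epithelial genes, were mostly lower in aCM than in nCM, as was Vim. Their part in the level of Vim was not tested. Of 9 tested, 1 rose and 8 fell in aCM minus nCM, where 62.7% of all genes were called, 30.8% as higher and 31.9% as lower. The median was -1.19, against -0.01 over all genes. Snai2, a zinc finger repressor, averaged 0.998 ± 0.602 CPM in aCM and 6.74 ± 0.793 in nCM, and the basic helix-loop-helix factor Twist2 0.753 ± 0.307 CPM in aCM and 3.78 ± 0.72 in nCM (SD, n = 3 each, edgeR, adjusted p = 2.27e-05 and 5.33e-06). Cdh2, which encodes N-cadherin of the cardiomyocyte junction as well as of mesenchymal cells, was the 1 that rose, at 709 ± 52.1 CPM in aCM and 77.1 ± 11.1 in nCM (edgeR, adjusted p = 4.57e-06). In iCM minus CSC, 4 rose and 3 fell, where 66.0% of all genes were called, 34.8% as higher and 31.2% as lower. Vim differed there by -0.20 ± 0.21. Of the 4 that rose, Snai2 averaged 7.58 ± 1.1 CPM in iCM, against 4.38 ± 1.64 in CSC, and its call was lost with RLE scaling. Prrx1, a homeobox gene of mesenchyme, averaged 29.7 ± 3.89 CPM in iCM, against 86.6 ± 10.3 in CSC, and Twist2 5.65 ± 0.512 CPM in iCM, against 24.0 ± 4.92 in CSC, both lower in iCM (edgeR, adjusted p = 1.05e-06 and 1.5e-06).

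Among mesothelial and epicardial markers, 10 of 12 rose and 1 fell in iCM minus CSC, where 66.0% of all genes were called, 34.8% as higher and 31.2% as lower. Aldh1a2, the retinoic acid synthesis enzyme of epicardium, averaged 41.4 ± 5.16 CPM in iCM, against 0.364 ± 0.112 in CSC, and Upk3b, a mesothelial uroplakin, 8.84 ± 0.813 CPM in iCM, against 0.0954 ± 0.0526 in CSC (SD, n = 3 each, edgeR, adjusted p = 6.08e-10 and 2.89e-08). Msln, the mesothelial surface protein mesothelin, averaged 40.9 ± 2.04 CPM in iCM, against 34.6 ± 14.0 in CSC, and was not called (edgeR, adjusted p = 0.566).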
